A study of Homo sapiens with 6 samples.

Results

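Replication-dependent histone genes encode the bulk of the proteins that package newly made DNA. They were taken as the identifiers whose gene name begins with HIST1H, HIST2H, HIST3H or HIST4H and holds no hyphen, which gave 76 of the 17721 identifiers listed in either of 2 deposited expression tables. The first table listed 74 of them, the second listed 71, and 69 were in both. By class there were 7 for H1, 18 for H2A, 23 for H2B, 15 for H3 and 13 for H4. By cluster there were 55 in HIST1 on chromosome 6, 16 in HIST2 and 4 in HIST3 on chromosome 1, and 1 in HIST4 on chromosome 12. RefSeq types 66 of the 76 as protein coding and 10 as pseudogenes, so the name rule also takes in gene remnants.

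The labels described 6 RNA samples of U2OS, an established human osteosarcoma cell line: 1 input and 2 immunoprecipitates from control cells (shNC, also called U6) and 1 input and 2 immunoprecipitates from cells whose DNMT1 is depleted by a hairpin RNA (shDNMT1). The immunoprecipitates held RNA bound to mutant NSun2 (the normal enzyme adds methyl groups to RNA cytosines), and a plasmid for that mutant was put into control and knockdown cells alike. The sources used here give neither the mutation nor whether the hairpin line is 1 clone. Each table gave 1 FPKM value per gene (fragments scaled for transcript length and library size) and named no sample. Neither table can therefore be assigned to control or knockdown cells, nor to input or immunoprecipitate. So there was 1 value for a gene in either table, without replicate, error or test. Where 2 FPKM values follow a gene name, the first table's comes first. Differences are between these tables. A lower FPKM can mean fewer cells that hold an RNA or less of it per cell. It can also mean less RNA recovered in an immunoprecipitate, or a smaller share of the total. These readings cannot be told apart.

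A nucleosome wraps DNA around copies of the core histones H2A, H2B, H3 and H4, and the linker histone H1 binds where the DNA enters and leaves. Cells make most of this protein in S phase, from many near-identical intronless genes gathered in clusters. Their mRNAs end in a conserved stem-loop that the protein SLBP binds, in place of a poly(A) tail, so their share in a library also depends on how RNA was selected. The sources used here do not say which selection was used.

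Histone mRNAs were abundant in both tables. Of the 100 highest identifiers, 21 of the first table were histone genes and 14 of the second. Members were 74 of the 15167 identifiers of the first table and 71 of the 16824 of the second. The summed FPKM of the members was 34084 and then 22586, or 5.90% and 4.17% of all FPKM listed. Since FPKM is divided by transcript length, these ranks and shares are of FPKM and not of fragments. The highest members were HIST2H2AA3, at rank 14 and 20 among all identifiers, and its copy HIST2H2AA4, at rank 20 and 29. Levels among members spanned a wide range, from these down to pseudogenes under 1 FPKM, and 54 members had a mean of at least 100 FPKM.

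Nearly every expressed histone gene was lower in the second table. Ratios are given as log2((second + 1)/(first + 1)), with 1 FPKM added to each value. Of the 69 members with both values, 61 were lower in the second table (45.2% of the 14270 genes with both values) and 8 were higher (54.8%), with a median log2 ratio of -0.57 against 0.05 for the 14270 genes. All 59 members with a mean of at least 10 FPKM were lower, against 45.7% of the 4941 genes at that level. The same held for the 54 with a mean of at least 100 FPKM, where the share over all genes was 58.0% and over the 539 genes that are not members 53.8%. The members lay close together: at a mean of at least 10 FPKM their ratios ran from -1.15 to -0.16. Their median was -0.58 and their SD 0.21 across genes, while the 4882 other genes had a median of 0.05 and an SD of 0.41. Most of those other genes were far lower in level than the members. At a mean of at least 100 FPKM the SDs were nearer, 0.20 for the 54 members and 0.33 for the 539 other genes. Large differences were few, with 2 members at least 2-fold lower (1.68% of all genes in both tables) and 2 at least 2-fold higher (2.04%).

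**Figure D1:**
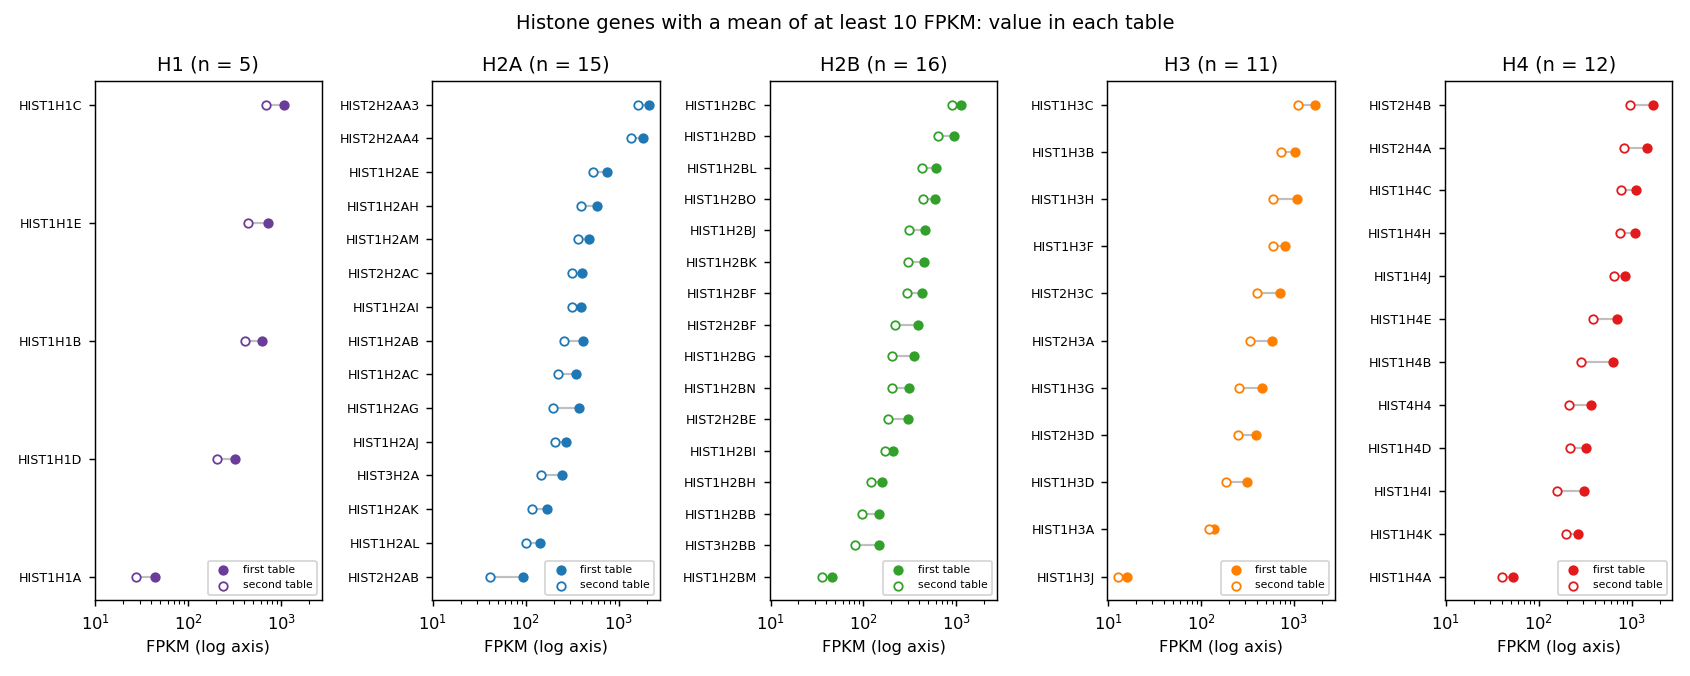
FPKM of the 59 histone genes with a mean of at least 10 FPKM, on a log axis, with a panel for each class; filled points are the first table, open points the second, and a grey line joins the values of a gene. The open point lies to the left of the filled point for each of the 59 genes, and the order of the genes is nearly the same in both tables.

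The rank order of the members was nearly kept. Across the 59 members with a mean of at least 10 FPKM, log2 FPKM in the tables had a Pearson correlation of 0.989 and FPKM a Spearman correlation of 0.983. These genes are not independent replicates, since many share sequence. The size of the difference did not follow the level of the gene, with a Spearman correlation of -0.04 between ratio and mean FPKM.

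Promoter sequence is shown for the highest H1, H2A, H3 and H4 gene, and for the highest H2B gene further on with its divergent partner, because short elements there are shared by some classes and particular letters recur within others. RefSeq promoter windows (GRCh38.p14) were matched for 62 of the 76 members. Each stretch below ends at the base before the annotated start, runs 5′ to 3′ on the strand of the gene, and has in capitals any match, on either strand, to the TATA box core TATAA, the CCAAT box CCAAT, the octamer ATTTGCAT bound by POU2F1, the H1 box AAACACA and GGTCCG, letters of the H4 promoter element that the factor HINFP reads. Motifs were counted separately, and matches to different motifs may share letters.
HIST1H1C (chr6:26056471-26056620, minus strand): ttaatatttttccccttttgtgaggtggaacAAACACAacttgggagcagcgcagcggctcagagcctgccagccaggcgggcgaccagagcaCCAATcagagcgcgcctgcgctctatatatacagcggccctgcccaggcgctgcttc
HIST2H2AA3 (chr1:149842751-149842900, minus strand): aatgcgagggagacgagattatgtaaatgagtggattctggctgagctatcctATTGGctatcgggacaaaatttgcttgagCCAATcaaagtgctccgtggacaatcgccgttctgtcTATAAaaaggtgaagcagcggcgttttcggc
HIST1H3C (chr6:26045234-26045383, plus strand): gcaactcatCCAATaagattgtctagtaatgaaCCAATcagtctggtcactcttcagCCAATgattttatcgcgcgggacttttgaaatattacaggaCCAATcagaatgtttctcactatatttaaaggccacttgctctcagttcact
HIST2H4B (chr1:149861160-149861309, minus strand): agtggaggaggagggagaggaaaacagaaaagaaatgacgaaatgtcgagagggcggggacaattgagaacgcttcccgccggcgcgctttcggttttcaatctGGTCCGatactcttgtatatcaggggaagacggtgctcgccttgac

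Some elements were shared by most classes and others marked 1 class. Within 250 bases before the start, TATAA was found in 57 of 62 member windows, against 18.9% of the 35116 promoter windows of the RefSeq table. A match on either strand and at any place in the window counted, so it need not lie where a TATA box works. All 13 H3 windows held TATAA, but the stretch printed for HIST1H3C holds none, so its match lies further from the start. CCAAT was found in each of the 52 H1, H2A, H2B and H3 windows but in 1 of 10 H4 windows, against 32.0% of all windows. AAACACA was found in 6 of 6 H1 windows and in none of the other 56, against 4.82% of all windows. GGTCCG was found in 10 of 10 H4 windows and in 3 of the other 52, against 9.43%. The octamer was found in 14 of 18 H2B windows and 10 of 15 H2A windows, in 1 H3 window and in no H1 or H4 window, against 1.63%. A match describes letters in a window and does not show that a factor binds there. At a mean of at least 10 FPKM the median log2 ratio was -0.56 for 12 H2B genes with the octamer and -0.58 for 4 without. It was -0.51 for 9 H2A genes with the octamer and -0.42 for 5 without.

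The linker histones had closely similar ratios. HIST1H1C, which encodes H1.2, was the highest at 1074 and 681 FPKM, and made up 38.6% and 38.7% of the summed H1 level. HIST1H1E, for H1.4, was listed at 728 and 439 FPKM. HIST1H1B, for H1.5, was listed at 625 and 409 FPKM. The remaining somatic forms were lower in level, HIST1H1D (H1.3) at 315 and 205 FPKM and HIST1H1A (H1.1) at 44.1 and 27.6 FPKM. Although their levels differed widely, the log2 ratios of these 5 genes lay between -0.73 and -0.61. HIST1H1T, the H1 form of the testis, had a value of 0.18 FPKM in the second table alone, and the pseudogene HIST1H1PS1 in the first only, at 0.44 FPKM.

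Among the H2A genes the duplicated HIST2 copies dominated. HIST2H2AA3 was listed at 2128 and 1601 FPKM, and HIST2H2AA4 at 1821 and 1363 FPKM. HIST2H2AA3 alone made up 24.7% and 25.9% of the summed H2A level. Below them stood HIST1H2AE at 755 and 530 FPKM and HIST1H2AH at 585 and 390 FPKM. These 4 genes had log2 ratios between -0.58 and -0.41. HIST1H2AM was listed at 483 and 366 FPKM, HIST1H2AB at 416 and 258 FPKM and HIST2H2AC at 404 and 318 FPKM. HIST1H2AI, at 392 and 314 FPKM, had the smallest difference of the abundant H2A genes, a log2 ratio of -0.32. HIST1H2AG, at 373 and 196 FPKM, stood near the other end at -0.93, so genes of like level in the first table differed in ratio. HIST1H2AC was listed at 350 and 223 FPKM, HIST1H2AJ at 270 and 205 FPKM and HIST3H2A at 246 and 147 FPKM. HIST1H2AK, at 167 and 117 FPKM, and HIST1H2AL, at 142 and 99.2 FPKM, share a locus and had log2 ratios of -0.52 and -0.51. HIST2H2AB, at 92.4 and 41.6 FPKM, was past 2-fold with -1.13, and shared its locus with BOLA1, a mitochondrial iron-sulphur cluster factor listed at 4.41 and 4.75 FPKM.

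The H2B genes were more evenly used. HIST1H2BC led at 1122 and 895 FPKM, which was 16.8% and 19.4% of the summed H2B level. HIST1H2BD followed at 945 and 636 FPKM. HIST1H2BL was listed at 609 and 427 FPKM and HIST1H2BO at 593 and 434 FPKM. HIST1H2BJ, HIST1H2BK and HIST1H2BF lay close together, at 456 and 305, 449 and 299, and 429 and 294 FPKM, and their log2 ratios were as close, at -0.58, -0.58 and -0.55. The HIST2 members HIST2H2BF, at 382 and 221 FPKM, and HIST2H2BE, at 302 and 185 FPKM, had ratios of -0.79 and -0.70. HIST1H2BG, at 352 and 202 FPKM, had -0.80. The lowest ratio among expressed H2B genes was that of HIST3H2BB, at 147 and 82.0 FPKM, with -0.83, and the highest that of HIST1H2BI, at 207 and 169 FPKM, with -0.29. HIST1H2BN (307 and 203 FPKM), HIST1H2BH (159 and 121 FPKM), HIST1H2BB (146 and 96.6 FPKM) and HIST1H2BM (45.6 and 35.5 FPKM) lay between them. HIST1H2BE, which shares a merged locus with HIST1H2BD, was near the floor at 1.46 and 0.70 FPKM. HIST1H2BA, the testis form of H2B, was listed in the first table only, at 3.57 FPKM.

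HIST1H3C was the highest H3 gene, at 1677 and 1110 FPKM, or 23.4% and 24.2% of the summed H3 level. HIST1H3H was listed at 1077 and 599 FPKM and HIST1H3B at 1015 and 718 FPKM. These 2 genes, nearly equal in the first table, had log2 ratios of -0.85 and -0.50. HIST1H3F was listed at 799 and 589 FPKM. The HIST2 genes encode the H3.2 protein and the HIST1 genes the H3.1 protein. HIST2H3C, at 709 and 401 FPKM, and HIST2H3A, at 578 and 337 FPKM, had ratios of -0.82 and -0.78, and HIST2H3D, at 386 and 251 FPKM, had -0.62. Of the remaining H3.1 genes HIST1H3G was listed at 453 and 253 FPKM and HIST1H3D at 311 and 187 FPKM. HIST1H3A, at 136 and 122 FPKM, had the smallest difference of any expressed member, a log2 ratio of -0.16. HIST1H3J was listed at 15.8 and 12.7 FPKM, and HIST1H3E had 0.077 FPKM in the second table alone.

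The H4 genes are many copies for nearly always the same protein, and they included the lowest ratio of all members. HIST2H4B, at 1703 and 969 FPKM, and HIST2H4A, at 1465 and 832 FPKM, were the highest. HIST1H4C was listed at 1105 and 770 FPKM and HIST1H4H at 1085 and 746 FPKM. The 2 HIST2 copies had log2 ratios of -0.81 and the 2 HIST1 genes of -0.52 and -0.54. HIST1H4B, at 628 and 282 FPKM, had that ratio, -1.15, and was 2.22-fold higher in the first table without the pseudocount. HIST1H4I, at 309 and 157 FPKM, had -0.97 and HIST1H4E, at 693 and 380 FPKM, had -0.86. HIST1H4J, at 844 and 646 FPKM, had the highest ratio of the class, -0.39. HIST4H4, the single gene on chromosome 12, was listed at 370 and 214 FPKM with a ratio of -0.78. HIST1H4D (325 and 218 FPKM), HIST1H4K (264 and 196 FPKM) and HIST1H4A (53.3 and 40.0 FPKM) completed the class, with ratios from -0.57 to -0.41.

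**Figure D2:**
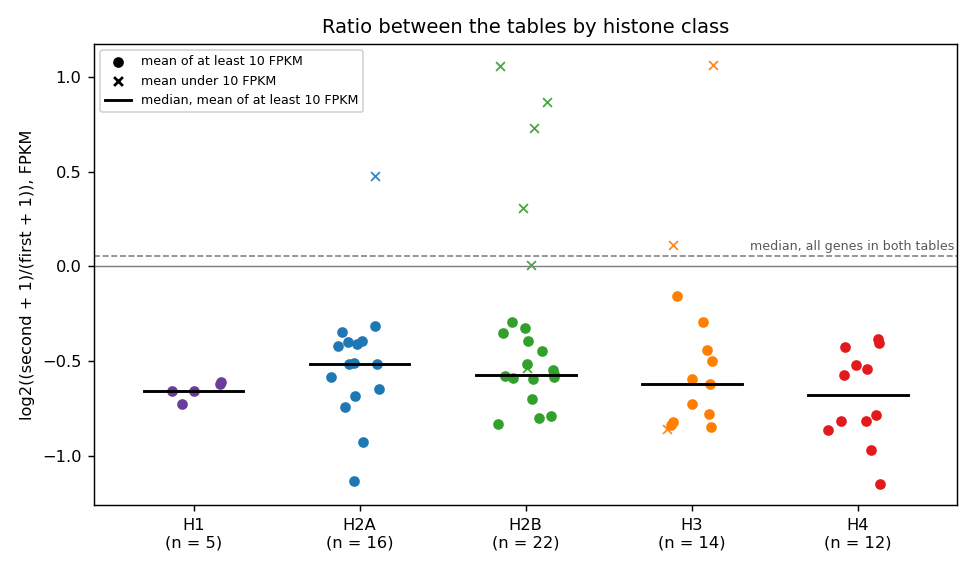
Log2((second + 1)/(first + 1)) of the 69 histone genes in both tables, by class; circles are genes with a mean of at least 10 FPKM, crosses those under it, bars the median of the circles, and the dashed line the median over all 14270 genes. Every circle lies below 0, and the points above 0 are crosses.

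Class medians were close to each other. Over members with a mean of at least 10 FPKM the median log2 ratio was -0.51 for H2A (15 genes), -0.57 for H2B (16), -0.62 for H3 (11), -0.66 for H1 (5) and -0.68 for H4 (12). The ranges overlapped between any 2 classes, H2A running from -1.13 to -0.32 and H4 from -1.15 to -0.39. On summed FPKM, H4 went from 8844 in the first table to 5451, and H2A from 8630 to 6170. H3 went from 7164 to 4584, H2B from 6660 to 4618 and H1 from 2786 to 1762. The log2 ratios of these sums were -0.48 for H2A, -0.53 for H2B, -0.64 for H3, -0.66 for H1 and -0.70 for H4, an order with no replicate spread to set it against. H2A held 25.3% and 27.3% of the histone sum, and H4 25.9% and 24.1%.

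**Figure D3:**
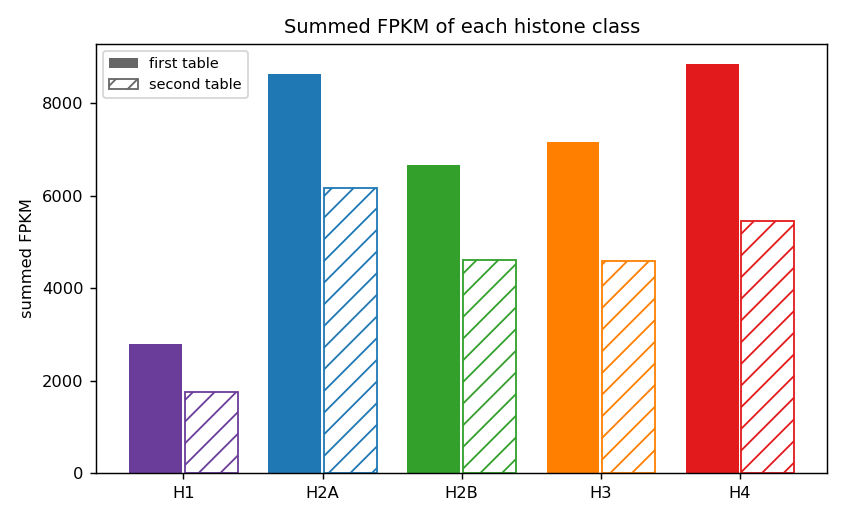
Summed FPKM of the members of each class (vertical axis) in the first table (filled bars) and the second (hatched bars), with no error bars since each table gives 1 value per gene. H4 was the highest class in the first table and H2A in the second, and H1 was the lowest in both.

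By cluster, the median log2 ratio of members with a mean of at least 10 FPKM was -0.57 for the 45 of HIST1 and -0.78 for the 11 of HIST2. HIST3 had 2 such genes, at -0.83 and -0.74, and HIST4 had 1, at -0.78. The 11 HIST2 genes include duplicated copies, which are not independent measurements. On summed FPKM the clusters were close, with log2 ratios of -0.58 for HIST1 and -0.61 for HIST2. The cluster shares of summed histone FPKM were 68.5% and 69.1% for HIST1 and 29.3% and 28.9% for HIST2. HIST2 was mixed within itself. Its H3 and H4 sums had log2 ratios of -0.76 and -0.81, its H2B sum -0.72 and its H2A sum, which the HIST2H2AA3 and HIST2H2AA4 copies dominate, -0.42.

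HIST1 falls into blocks along chromosome 6, split here at gaps of over 200 kb. The largest, from HIST1H1A to HIST1H4H (hg38, 26017085 to 26285638), held 33 members and a median log2 ratio of -0.58 over the 26 with a mean of at least 10 FPKM. The next, from HIST1H2BJ to HIST1H2AH (27125897 to 27147515), held 5 members with a median of -0.58. The last, from HIST1H4PS1 to HIST1H2BO (27807075 to 27893843), held 15 members and a median of -0.44 over 14, and its ratios, from -0.85 to -0.30, lay within the range of the first of these blocks, -1.15 to -0.16. Of the other listed genes inside the HIST1 span 7 of 18 were lower in the second table, or 38.9%, near the 45.2% of all genes. Their median log2 ratio was 0.14, and their median levels were only 1.18 and 1.28 FPKM. Only HFE, RP1-221C16.8 and RP1-34B20.21 start inside a block, with log2 ratios of -0.26, 0.23 and -0.81. The rest start outside the blocks, so most of the 18 do not show what genes within a block do. Among the rest HMGN4, a nucleosome-binding protein gene, was listed at 15.5 and 21.7 FPKM. ABT1, a transcription activator gene and also outside the blocks, was listed at 11.5 and 15.1 FPKM. The highest in level of the 18 was RP1-34B20.21, at 708 and 403 FPKM. It shares a merged locus with HIST1H3D, HIST1H2AD and HIST1H1PS1. Within the dense part of HIST2 there were 4 other genes, 3 of them lower, with a median of -0.14.

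**Figure D4:**
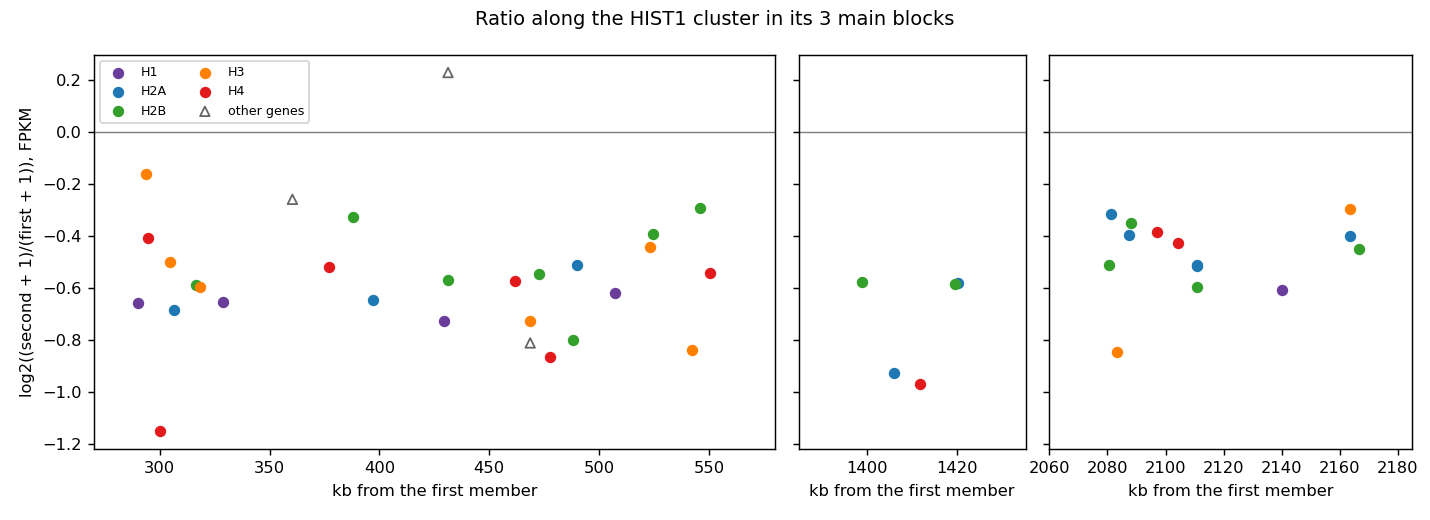
Log2((second + 1)/(first + 1)) of the HIST1 members with a mean of at least 10 FPKM (coloured circles, by class) and of other genes (open triangles) against distance in kb from the first member, in the 3 main blocks; gaps between panels are not drawn. Circles of each class lie below 0 in each block, and the triangle near -0.8 is RP1-34B20.21, which shares its locus with histone genes.

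Many H2A and H2B genes start back to back and share the sequence between their starts. There were 11 such pairs of members with starts at most 500 bases apart, 10 of them H2A with H2B. The motif counts given earlier, TATAA and the octamer among them, thus count some stretches for each partner. The pair that holds the highest H2B gene, HIST1H2BC and HIST1H2AC, is shown whole, from the start of HIST1H2AC at its left end to that of HIST1H2BC at its right end, 245 bases, with the same letters in capitals.
HIST1H2BC to HIST1H2AC (chr6:26123927-26124171, minus strand): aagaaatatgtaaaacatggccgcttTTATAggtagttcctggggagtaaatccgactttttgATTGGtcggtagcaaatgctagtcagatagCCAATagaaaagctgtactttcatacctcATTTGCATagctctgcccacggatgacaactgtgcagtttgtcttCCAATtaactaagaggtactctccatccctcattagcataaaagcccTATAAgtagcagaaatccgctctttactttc
The octamer begins 123 bases before the start of HIST1H2BC, and TATAA matches lie near either end. From this shared stretch HIST1H2BC was listed at 1122 and 895 FPKM and HIST1H2AC at 350 and 223 FPKM, with log2 ratios of -0.33 and -0.65. Over the 10 pairs with both partners in both tables the median difference of log2 ratio was 0.19, from 0.04 for HIST1H2AJ with HIST1H2BM to 0.35 for HIST2H2BE with HIST2H2AC. For scale, the SD of the ratio over the 59 members with a mean of at least 10 FPKM was 0.21. The partners' ratios had a Pearson correlation of 0.18 over these 10 pairs. HIST1H2BF stands in 2 of the 11 pairs, since RefSeq gives HIST1H3D and HIST1H2AD the same start, and HIST1H2AD was listed in the first table only, at 3.80 FPKM.

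Duplicated genes differed in level, but the copies of a pair had close ratios and split its FPKM nearly alike in both tables. HIST2H4A and HIST2H4B have identical RefSeq sequence over all 250 bases before the start. HIST2H2AA3 and HIST2H2AA4 are identical over 249 aligned bases, and HIST2H3A and HIST2H3C over 246, after allowing for start sites that RefSeq places a few bases apart. HIST2H4A took 46.2% of the FPKM of its pair in both tables, HIST2H2AA3 took 53.9% and 54.0%, and HIST2H3A 44.9% and 45.6%. Fragments of such copies can be divided between them by the counting upstream, so the members of a pair are not independent measurements. Separately, 16 members share a locus with another identifier, and how fragments were assigned within such a locus is not known. HIST2H3C and HIST2H4A share chromosome 1, 149832659 to 149841193, and HIST2H3A and HIST2H4B share 149852619 to 149861210. Summed per locus these had log2 ratios of -0.82 and -0.80, and the locus of RP1-34B20.21 and HIST1H3D had -0.79.

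The ratio moved with the length of the locus given in the tables. Of the 24 members with a locus under 450 bases, 21 had a length divisible by 3 and 21 were shorter than the RefSeq gene, as gene models that cover the coding part alone would be. Among members alone at their locus with a mean of at least 10 FPKM, the median log2 ratio was -0.45 for 25 with a locus of at most 600 bases and -0.70 for 21 with a longer locus. This order held in each class with both kinds. The medians were -0.41 (8 genes) and -0.74 (3) for H2A, -0.48 (6) and -0.58 (7) for H2B, -0.50 (5) and -0.84 (2) for H3, and -0.47 (6) and -0.82 (4) for H4. HIST1H4B, with the lowest ratio, had a short locus and was an exception. Across these 46 members the Spearman correlation of ratio with locus length was -0.49, while across 2540 other genes at the same level it was 0.22. Short genes that are not members also ran low: 8 of 10 with a locus of at most 600 bases were lower in the second table, with a median of -0.46. Of the 2530 with a longer locus 1058 were lower, with a median of 0.08. The part of gene model length in the histone ratios was not tested.

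**Figure D5:**
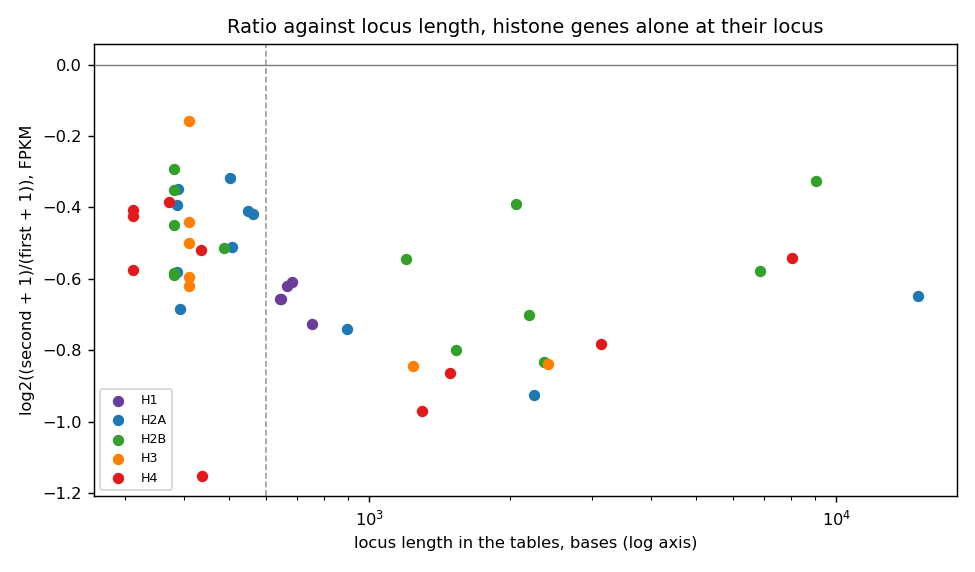
Log2((second + 1)/(first + 1)) against the locus length in the tables (log axis) for the 46 histone genes alone at their locus with a mean of at least 10 FPKM, coloured by class; the dashed line marks 600 bases. Genes to the left of the line lie mostly between -0.7 and -0.3, with HIST1H4B at -1.15 and HIST1H3A at -0.16, and most genes of 1000 to 5000 bases lie lower.

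Histone pseudogenes with both values were not lower in the second table. The 7 pseudogenes with both values were each listed at no more than 5.56 FPKM, and none was lower in the second table, whereas 61 of the 62 protein-coding members with both values were. HIST2H2BC was listed at 2.95 and 5.56 FPKM, HIST2H2BD at 1.81 and 4.13 FPKM and HIST2H2BA at 0.50 and 2.13 FPKM. HIST2H2BA had a log2 ratio of 1.06 and lies away from the other HIST2 genes, at chromosome 1, 121087345 to 121117257. The coding gene that was higher was HIST3H3, the testis-type H3, at 0.47 and 2.08 FPKM. HIST1H2APS4 was listed at 0.42 and 0.98 FPKM and HIST1H2BPS1 at 0.12 and 0.38 FPKM. HIST2H3DP1 (0.38 and 0.50 FPKM) and HIST3H2BA (0.23 and 0.23 FPKM) differed least. Other low coding members were lower, HIST2H3PS2 at 4.84 and 2.22 FPKM with a log2 ratio of -0.86 and HIST1H2BE, whose values are given with the H2B genes, with -0.54. The remaining pseudogenes, HIST1H2APS5, HIST1H4PS1 and HIST1H1PS1, were listed in the first table only, at 1.21, 0.79 and 0.44 FPKM. They have no ratio, so their absence from the second table does not enter the count of pseudogenes given above. Over the 9319 other genes with a mean under 10 FPKM, 44.9% were lower in the second table, with a median of 0.06.

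Genes that make, process and deposit histones were, list by list, not mostly lower in the second table. Their counts are to be read against all 14270 genes, of which 45.2% were lower and 54.8% higher. Of 9 genes for histone gene transcription 3 were lower in the second table and 6 higher, with a median log2 ratio of 0.20. The kinase gene CDK2, which with cyclin E activates the histone locus factor NPAT, was listed at 69.7 and 80.1 FPKM, and NPAT itself at 1.28 and 2.17 FPKM. E2F1, an S phase transcription factor, was listed at 36.3 and 29.5 FPKM. Cyclin E2 (CCNE2), at 0.48 and 2.37 FPKM, was the member at least 2-fold higher. The 11 genes for 3′ end formation divided into 5 lower and 6 higher, with a median of 0.01, and these splits were near that of all genes. SLBP, whose protein binds the stem-loop, was listed at 16.8 and 26.0 FPKM with a log2 ratio of 0.60, opposite in sign to the histone genes. The scaffold SYMPK was listed at 37.8 and 37.9 FPKM and the cleavage factor subunit CPSF1 at 30.1 and 23.7 FPKM.

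Of 14 genes for histone mRNA decay 11 were higher in the second table (54.8% of all genes), with a median of 0.31. LSM4, part of the ring that binds histone mRNA ends, was listed at 133 and 98.1 FPKM and LSM2 at 51.4 and 49.7 FPKM, both lower, while LSM1 was at least 2-fold higher at 3.36 and 13.7 FPKM and ERI1, the exonuclease that trims the stem-loop, was listed at 2.58 and 5.22 FPKM. Of 13 histone chaperone genes 10 were higher (54.8% of all genes), and the median was 0.07. The FACT subunit SSRP1 was listed at 61.7 and 70.8 FPKM, the importin IPO4 at 59.4 and 57.2 FPKM and NASP, which holds free H3 and H4, at 8.45 and 15.4 FPKM. Of 22 S phase genes 15 were higher (54.8% of all genes), and the median was 0.14. SLBP is counted both here and among the genes for 3′ end formation. MCM7 and MCM2, helicase subunits, were listed at 176 and 157 FPKM and at 155 and 150 FPKM, and PCNA, the replication clamp, at 46.6 and 52.7 FPKM. On the sum over the S phase list the tables were close, with 981 and 977 FPKM.

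Replication-independent variants, whose genes lie outside the clusters and give polyadenylated mRNA, gave 6 higher genes of 10 (54.8% of all genes) and a median log2 ratio of 0.24. H2AFZ had 114 and 152 FPKM, and H3F3B, for H3.3, had 111 and 135. H2AFX, which can also end in the stem-loop, was listed at 237 and 177 FPKM with a log2 ratio of -0.42, and the linker variant H1FX at 195 and 148 FPKM with -0.40. Their locus lengths were 1614 and 11455 bases.

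Facts of the tables as a whole bear on these values. Summed FPKM was 578013 and 541559, and the number of fragments behind either is unknown. DNMT1, the target of the hairpin, was listed at 23.3 and 9.36 FPKM, and NSUN2 at 559 and 1147 FPKM, where plasmid and chromosomal RNA are not separated. Of 9 mesenchymal and bone markers the first table listed 3 and the second 6. VIM was listed at 262 and 407 FPKM and ALPL, the bone alkaline phosphatase gene, at 78.4 and 38.05 FPKM. COL1A1 was listed at 3.04 and 0.45 FPKM and RUNX2 had 0.81 FPKM in the second table alone. All 4 epithelial markers had a value in both tables, summing to 2900 and 2607 FPKM. Nearly all of that sum was KRT8, at 1597 and 1410 FPKM, and KRT18, at 1293 and 1196 FPKM. CDH1, at 8.42 and 0.39 FPKM, and EPCAM, at 2.20 and 0.55 FPKM, were low, so the epithelial set was not high as a whole. If read as levels in cells, keratins above VIM, with most bone markers low or without a value, do not match the U2OS label well. Neither table can be assigned to input or immunoprecipitate, so these values may not be levels in cells. The identity of the cells, and the part of these differences in the histone values, was not tested.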

How the data were processed

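The values were FPKM per gene in 2 tables deposited by the authors, whose columns, per the file headers, hold a gene identifier and name, its locus and its FPKM. Since no sample is named there, no value was assigned to any of the 6 samples, and the sources used here do not say whether a table pools libraries. Cutadapt 1.12, BWA 0.7.13, MACS 1.4.2 and hg38 are named in the submitters' processing notes without a role, and the tool that made the FPKM is not stated. FPKM is a share of a total and is divided by a transcript length. For very short transcripts it depends on how that length was set.

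Tables were joined by identifier. The log2 ratio used a pseudocount of 1 FPKM, which understates differences of low genes. A planned limma fit needed columns named for samples and was not possible. Without replicates there was no test, and members are described by counts and medians beside those of all 14270 genes in both tables. Members with a mean of at least 100 FPKM, the extremes of each class, those at least 2-fold apart and those in 1 table only were named, and other members were added to account for all. From each pathway list the 2 highest genes and those at least 2-fold apart were named. SLBP, NPAT, E2F1, ERI1, NASP, PCNA, HMGN4, ABT1, BOLA1, RP1-34B20.21, 2 of the variant genes and the marker genes given were also named after their values were seen. The members and lists were chosen with earlier results of these data known. The tables count locus starts from 0, so 1 was added: of 6746 genes with a locus to themselves, 1549 then had the RefSeq start, and 121 had it unshifted. RefSeq entries were matched by older symbol and position for 76 of 76 members. Motifs were searched in 250 bases before the start. Protein sequences were not used here. Counts and medians were checked on simulated data. Python 3.11.15, numpy 2.4.6, pandas 2.3.3 and matplotlib 3.10.9 were used. A pseudocount of 0.1 FPKM, level filters, centring, locus sums and several alternatives chosen after seeing the data were tried.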

Additional observations from a re-analysis of the deposited data

How the results depend on the processing

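No paired analysis was possible because neither table ties a value to a sample or replicate number. For the same reason leaving out a replicate was not run. With 1 value per table, a value is said to have moved when it changed by more than 1.5 times. The median log2 ratio of the members stayed between -0.66 and -0.42 over the settings run. The number higher in the second table, 8, became 4 among members with a mean of 1 FPKM or more, 0 from 10 FPKM upward, and 1 for members that RefSeq types as protein coding. For members alone at a locus of at most 600 bases 25 were lower and 5 higher, and at a locus of over 600 bases 22 were lower and 3 higher; these counts differ by construction, since fewer members enter. With a pseudocount of 0.1 FPKM the number at least 2-fold higher rose from 2 to 5, also by construction. The HIST3 median, -0.37 over its 4 members, was -0.79 over the 2 with a mean of at least 10 FPKM. Centring on the median of all genes turned HIST3H2BA, listed at 0.23 FPKM in both tables, from a log2 ratio just above 0 to -0.046. Of the recomputed ratios of single genes and members, 8 others moved, each for a member under 10 FPKM, and 129 did not. The absolute depth is unknown, so counting error could not be set beside any value. Splitting members by RefSeq type, by duplicate and by locus length was chosen after seeing the data.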
